A study of Mus musculus with 15 samples.

Results

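Skin taken at day 5 of a mouse wounding course was compared with skin taken at day 1, the earliest time after day 0 in the course, to describe which parts of the early response had receded and which genes of tissue repair had risen. RNA of C57BL/6 mouse skin was sequenced at 5 times of the course, day 0, 1, 3, 5 and 7, with 3 libraries per time and 15 in all. The comparison takes the 3 libraries titled as 5 day skin and the 3 titled as 1 day skin, 6 of the 15 libraries, chosen by their titles alone. Both groups are of the same strain and tissue, carry the same wound label and differ in the labels only by the time. The labels name no genotype, agent, sex, age, wound size or body site, and the day 0 libraries, which are not used here, carry the wound label too. Muscle and fat were removed from the skin before freezing, per the labels' protocols, and libraries were made from mRNA. Whether the 3 libraries of a day come from different mice is not stated in the labels, so the p-values reflect the spread among libraries alone, and this may be technical.

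Wounded skin passes through overlapping phases. Clotting and an acute inflammatory phase come first, in which cytokines and chemokines released by keratinocytes, fibroblasts and macrophages bring in neutrophils and then monocytes. A proliferative phase follows, in which keratinocytes close the surface and fibroblasts and new vessels fill the defect with granulation tissue, before the collagen matrix is remodelled.

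Each of the 6 libraries held between 51889573 and 60450396 estimated counts, so counting error was small beside the spread between libraries (common biological coefficient of variation 31.1%). Levels are given as counts-per-million (CPM) on scaled library sizes, in the order of replicates 1, 2 and 3, and are compared between days for 1 gene, not between genes, since they are not divided by gene length. Skin genes were present in all 6: Krt14, a keratin of basal keratinocytes, ranged from 2252 to 5384 CPM, and the collagen chain Col1a1 from 4396 to 11620 CPM. The mitochondrial share of the counts was 6.98% to 7.53% at day 1 and 7.42% to 8.70% at day 5. The share of hair shaft genes was 3.54% in day 5 replicate 2 and at most 0.223% in the other 5 libraries, and that library stood apart from the others.

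Of 16983 genes tested, 1054 (6.21%) had a Benjamini-Hochberg adjusted p under 0.05 in the quasi-likelihood test of edgeR, and these are said to be called. The called genes split into 359 higher (2.11%) and 695 lower (4.09%) at day 5. Of these, 139 rose and 361 fell by at least 2-fold, together 2.94% of the genes tested. For all 1054 called genes the libraries of both days did not overlap, as for 31.4% of all genes tested. A lack of overlap given below for a called gene is therefore a description and adds no support to its call. Counts of called members per list are to be read beside the shares of all genes tested, 2.11% higher and 4.09% lower. A count of 1 or 2 members says little about a list. Over all genes tested, the log2 fold change had a median of 0.03, with the middle of the distribution (interquartile range) between -0.19 and 0.31. The number of calls depended on which libraries entered: it ranged from 294 without day 1 replicate 1 to 872 without day 1 replicate 3, with 359 when day 1 replicate 2 was left out, and 485, 582 and 579 when day 5 replicates 1, 2 and 3 were each left out. Of the 1054 genes, 263 were called in all 6 of these fits. Genes named below as risen or fallen were called in all 6 unless an adjusted p without a library is given. Since the samples are whole skin, a change in the number of cells of a type and a change in RNA per cell cannot be told apart.

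**Figure D1:**
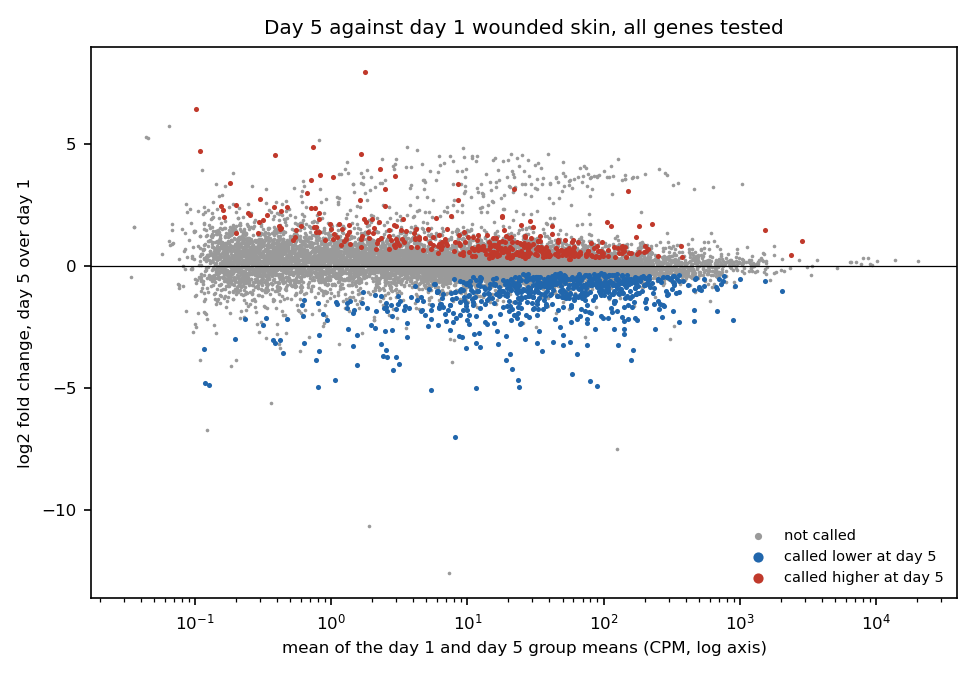
Log2 fold change of day 5 over day 1 (vertical axis) against the mean of both group means in CPM (horizontal log axis) for the 16983 genes tested, each point 1 gene. The 695 genes called lower (blue) reach further from 0 among well expressed genes than most of the 359 called higher (red), and the grey band near 3 to 4 on the vertical axis holds hair shaft genes, which were high in day 5 replicate 2 alone and were not called.

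**Figure D2:**
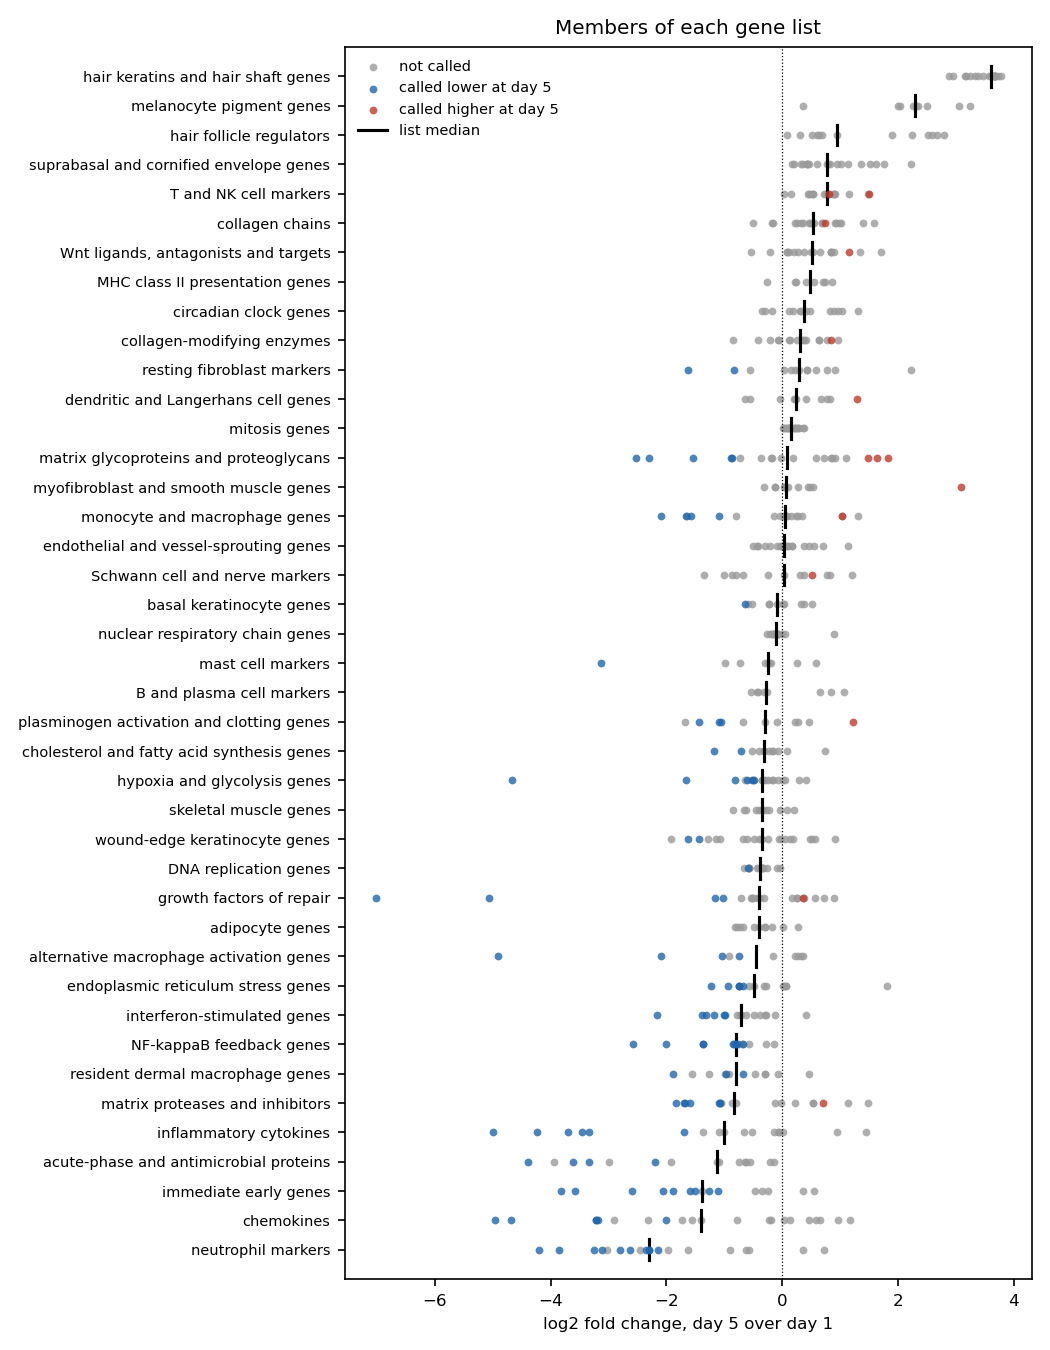
Log2 fold change of day 5 over day 1 (horizontal axis) for the tested members of the 41 gene lists (rows, ordered by their median), each point 1 gene, with the list median as a vertical bar. Neutrophil markers have the lowest median, -2.30, and hair keratins the highest, 3.60, but no hair keratin was called.

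Inflammatory cytokines, which carry the alarm between skin cells and leukocytes, were the first group compared. Of 17 measured, 6 fell, none rose and 11 were not called, with a median log2 fold change of -1.0 (0.03 over all genes). Il6, a cytokine that drives the acute-phase response, stood at 34.5, 17.6 and 14.7 CPM at day 1 and at 0.587, 0.875 and 0.623 CPM at day 5. Each day 5 library lay below 1 CPM and each day 1 library above 10 CPM, with no overlap. Il6 fell by 5.00 ± 0.41 (SE) on the log2 scale, 32.0-fold (edgeR adjusted p = 0.000435). Osm, oncostatin M, a relative of Il6 made by neutrophils and macrophages, went from 30.8, 21.4 and 14.8 CPM to 4.34, 1.03 and 1.26 CPM and fell 10.1-fold (edgeR adjusted p = 0.00589). Its highest day 5 value, in replicate 1, was still below its lowest day 1 value. Il24, a member of the interleukin-10 family made by keratinocytes among other cells, went from 6.98, 4.03 and 5.19 CPM to 0.326, 0.152 and 0.370 CPM and fell 18.9-fold. Il1b, the inflammasome-processed interleukin, went from 443, 236 and 232 CPM to 60.6, 11.5 and 11.2 CPM, a 10.9-fold difference (edgeR adjusted p = 0.0262). Day 5 replicate 1 was again the highest library of its day, and the Il1b call was lost without day 1 replicate 1 (0.0911), day 1 replicate 2 (0.0635), day 5 replicate 2 (0.0752) or day 5 replicate 3 (0.0713). Il19 (adjusted p = 0.0193) and Il33 (adjusted p = 0.0121), an alarmin stored in cell nuclei, made up the 6. For Il19 the adjusted p was 0.0592 or 0.0690 without day 1 replicate 1 or 2, and 0.0634 or 0.0619 without day 5 replicate 1 or 2. Tnf had a log2 fold change of -1.37 and the interleukin-1 receptor antagonist Il1rn of -1.0, neither called (edgeR adjusted p = 0.0708 and 0.0562). Il1a, at 15, 9.91 and 10.5 CPM and then 15.9, 7.59 and 12.3 CPM, overlapped between the days.

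The upstream sequences of Il6 and of the chemokine Cxcl1 are shown. Both genes are classic targets of NF-kappaB, the transcription factor of the inflammatory response, and had among the lowest fold changes. Both sequences come from called lower genes picked because their promoter window held the motif described below, so finding a match was certain beforehand. Each is the RefSeq promoter window, 250 bases before to 50 bases after the gene's start, on mouse build GRCm38.p6 and on the plus strand: chr5:30012864-30013163 for Il6 and chr5:90890995-90891294 for Cxcl1. The build the authors used is not given in the sources used here, so these coordinates are those of RefSeq. Capitals mark matches on either strand to the core letters of the NF-kappaB motif, GGG, then 5 bases of any kind, then CC, with overlapping matches joined.
Il6: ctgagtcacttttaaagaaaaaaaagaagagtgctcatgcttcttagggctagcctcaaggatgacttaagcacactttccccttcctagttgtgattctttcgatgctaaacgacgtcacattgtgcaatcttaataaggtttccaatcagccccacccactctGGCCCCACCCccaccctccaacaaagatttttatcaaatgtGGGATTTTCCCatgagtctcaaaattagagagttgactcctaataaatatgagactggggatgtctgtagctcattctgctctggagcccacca
Cxcl1: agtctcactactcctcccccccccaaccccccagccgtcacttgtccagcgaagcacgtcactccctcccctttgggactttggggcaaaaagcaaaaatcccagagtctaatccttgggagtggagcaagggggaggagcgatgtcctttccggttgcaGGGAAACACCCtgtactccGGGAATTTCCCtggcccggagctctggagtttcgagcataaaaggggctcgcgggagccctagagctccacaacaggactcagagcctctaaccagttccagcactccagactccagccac
Of 32851 promoter windows in the RefSeq table, 50.8% held this motif, so a match alone is common. It was held by 10 of 16 windows of the cytokine list, 11 of 16 windows of the chemokine list and 15 of 15 windows of the list of NF-kappaB feedback genes, the last described below. The feedback list was written from genes that NF-kappaB and cytokine receptors induce, and its 15 windows belong to 12 genes. These shares therefore describe the lists and not the change between the days. A match is a description of these letters, and binding of the factor was not measured.

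Chemokines, which direct leukocytes into the tissue, had 6 of 21 members lower and none higher, with a median log2 fold change of -1.41. Cxcl1, an attractant of neutrophils, stood at 74.5, 38.4 and 26.2 CPM at day 1 and 2.00, 1.31 and 1.11 CPM at day 5. The day 1 libraries all lay more than 10-fold above the highest day 5 library, and Cxcl1 fell by 4.97 ± 0.57 (SE) on the log2 scale (edgeR adjusted p = 0.00142). Ccl2, the main attractant of inflammatory monocytes, went from 165, 145 and 101 CPM to 15.4, 14 and 14.9 CPM, 9.28-fold lower (edgeR adjusted p = 0.000944). Its neighbour in function Ccl7 went from 294, 244 and 152 CPM to 24.0, 23.0 and 26.9 CPM, 9.34-fold lower. The 3 day 5 libraries were close to each other for both genes. Cxcl10, an interferon-induced attractant of T cells, went from 44.9, 45.5 and 39.0 CPM to 10.2, 8.96 and 12.8 CPM (edgeR adjusted p = 0.00355) without overlap. Cxcl3, another neutrophil attractant, fell 9.10-fold (edgeR adjusted p = 0.0128, and 0.0512 without day 1 replicate 1). Cxcl5 was 25.8-fold lower (edgeR adjusted p = 0.0224), but was called in 1 of the 6 fits without a library, that without day 1 replicate 3, and had adjusted p of 0.0564 to 0.0752 in the other 5. Cxcl2 and Ccl4, at 46.9, 2.76 and 2.39 CPM and 19.9, 2.93 and 2.82 CPM at day 5, were high in replicate 1 of that day and were not called (edgeR adjusted p = 0.165 and 0.0961). Several others did not pass the test in either direction: Ccl5 had a log2 fold change of 0.03, Ccl22 of 0.58, Ccl17 of 1.18 and the keratinocyte chemokine Ccl27a of 0.97. Without day 1 replicate 1, 4 chemokines were called lower.

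Genes that NF-kappaB and cytokine receptors induce, some of which in turn restrain them, formed a list of 14, of which 9 fell and none rose. The list also holds induced targets such as the adhesion molecule Icam1, so the count is not one of inhibitors alone. All 14 had a negative fold change, with a median of -0.79. Socs3, an inhibitor of signalling by the receptors of Il6 and its relatives, stood at 254, 204 and 157 CPM at day 1 and 31.0, 31.9 and 40.2 CPM at day 5. It fell by 2.58 ± 0.19 (SE) on the log2 scale, 5.97-fold (edgeR adjusted p = 0.000260), one of the smallest p-values of the comparison. Bcl3, a nuclear partner of NF-kappaB, fell 2.57-fold, from 42.5, 34.7 and 30.5 CPM to 14.2, 11.7 and 16 CPM. Nfkbia, the inhibitor that holds NF-kappaB in the cytoplasm, went from 118, 87.8 and 79.1 CPM to 50.5, 51.2 and 63.0 CPM with a log2 fold change of -0.79 (edgeR adjusted p = 0.0256), and lost its call without day 1 replicate 1 (0.0932), day 1 replicate 2 (0.0635), day 5 replicate 1 (0.0851) or day 5 replicate 2 (0.0737). The ubiquitin-editing enzyme Tnfaip3 was lower by 1.79-fold (edgeR adjusted p = 0.0402), but was called only in the fit without day 1 replicate 3 of the 6, with adjusted p of 0.0774 to 0.126 in the others. The count of called members was 4 without day 1 replicate 1, day 1 replicate 2, day 5 replicate 1 or day 5 replicate 2, and up to 10 in the other fits.

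Immediate early genes, which cells switch on within minutes of stress, growth factors or tissue handling, had 9 of 15 members lower and none higher, with a median of -1.38. Fos, a subunit of the AP-1 transcription factor, stood at 361, 271 and 259 CPM at day 1 and 16.1, 15.2 and 31.3 CPM at day 5 and fell 14.2-fold (edgeR adjusted p = 0.00604). Dusp1, a phosphatase that switches off MAP kinases, went from 306, 222 and 199.8 CPM to 41.6, 29.9 and 49.5 CPM and fell 6.01-fold (edgeR adjusted p = 0.00142). Zfp36, which speeds the decay of cytokine mRNAs, went from 267, 212 and 185 CPM to 44.3, 55.4 and 59.2 CPM and fell 4.18-fold (edgeR adjusted p = 0.00613). None of the 3 genes overlapped between the days. At day 3, Fos was still at 235 CPM on average, with 1 library of the 3 low, and at day 7 at 18.3 CPM. Egr2 and Egr3, of the same class, had positive fold changes of 0.36 and 0.54 on the log2 scale and were not called. Called members numbered 4 without day 1 replicate 1 or day 5 replicate 1, and 9 at most.

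**Figure D3:**
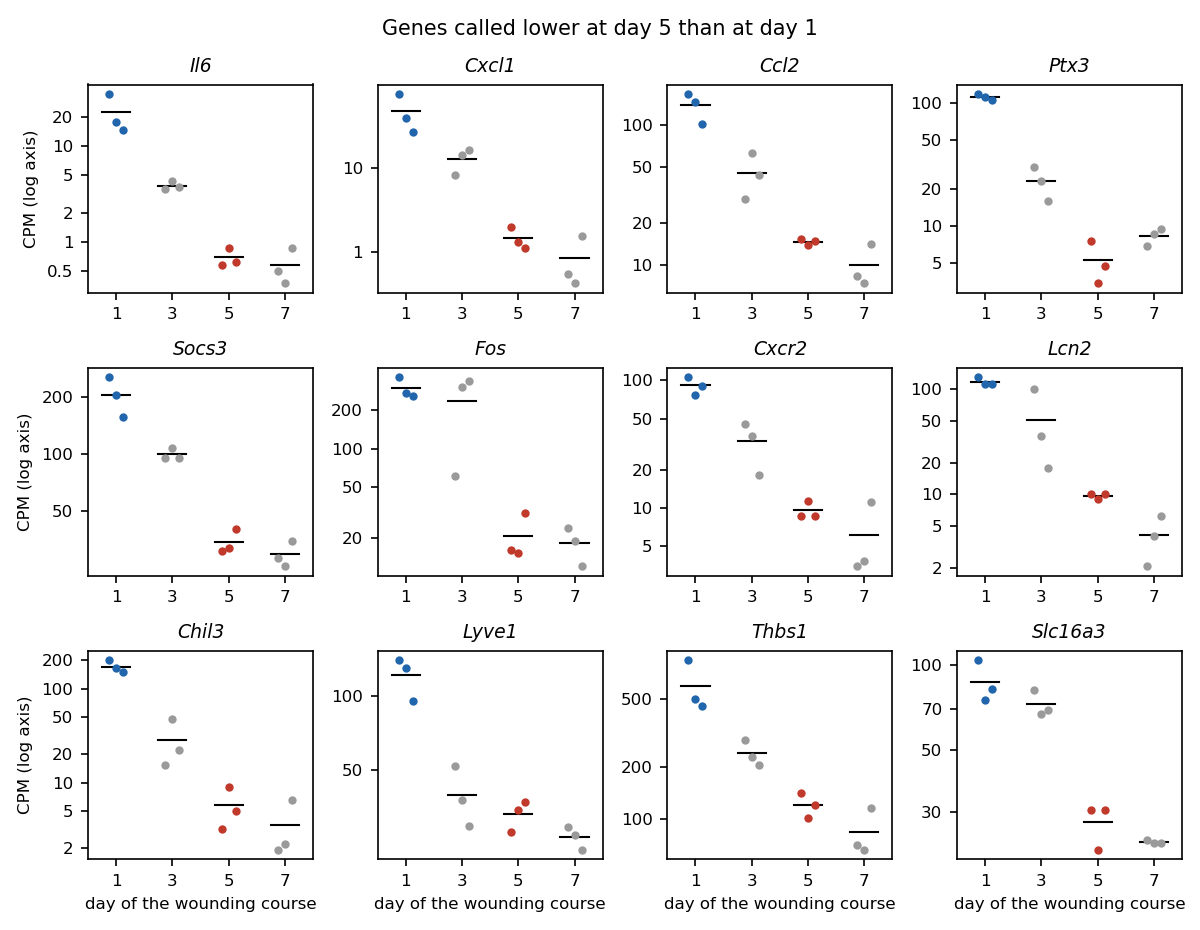
CPM (vertical log axes) of 12 genes called lower at day 5, by day of the course (horizontal axes), each point 1 library and each bar a group mean, with day 1 in blue, day 5 in red and the times not compared in grey. In each panel the 3 day 5 libraries lie below the 3 day 1 libraries, as for each gene called lower. Il6 goes from 22.3 to 0.695 CPM on average.

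Acute-phase and antimicrobial proteins, secreted defence molecules, had 4 of 15 tested members lower and none higher, with all 15 fold changes negative and a median of -1.13. Ptx3, a soluble pattern recognition protein, stood at 118, 111 and 105 CPM at day 1 and 7.61, 3.44 and 4.77 CPM at day 5. The day 1 libraries agreed closely, all day 5 libraries were below 10 CPM, and Ptx3 fell by 4.40 ± 0.32 (SE) on the log2 scale (edgeR adjusted p = 0.000260). Lcn2, which withholds iron from bacteria, went from 129.9, 113 and 112 CPM to 9.96, 9.07 and 9.98 CPM and fell 12.2-fold (edgeR adjusted p = 0.00763). Hp, haptoglobin, which binds free haemoglobin, went from 1432, 1366 and 1611 CPM to 300.5, 286 and 374 CPM and fell 4.59-fold (edgeR adjusted p = 0.00265). The serum amyloid genes Saa1 and Saa2 have near-identical sequences, so their split is uncertain: Saa1 was 10.1-fold lower (edgeR adjusted p = 0.0346), with adjusted p of 0.0865 to 0.114 in all fits without a library except that without day 1 replicate 3, and Saa2 was not called (0.0635). The complement genes C3 and Cfb had log2 fold changes of -0.74 and -0.56 and were not called.

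Neutrophil markers had the lowest median of the 41 lists, -2.30, with 10 of 19 tested members lower, none higher and 9 not called. Summed over the list, they stood at 1150 to 1611 CPM in the day 1 libraries and 263 to 500 CPM in the day 5 libraries. Abundant genes weigh most in this sum. S100a9, which was not called, made up 577, 405 and 699 of 1589, 1150 and 1611 CPM at day 1. Cxcr2, the receptor through which neutrophils follow chemokines such as Cxcl1, went from 106, 77.2 and 90.5 CPM to 8.70, 11.4 and 8.70 CPM and fell 9.49-fold (edgeR adjusted p = 0.00454). Csf3r, the receptor of granulocyte colony-stimulating factor, went from 131, 102 and 134 CPM to 27.6, 29.6 and 25.7 CPM (edgeR adjusted p = 0.00134). Trem1, a receptor that amplifies inflammation in neutrophils and monocytes, went from 60.1, 31.9 and 29.7 CPM to 4.19, 1.31 and 1.07 CPM and fell 18.4-fold (edgeR adjusted p = 0.00805). These receptors were separate between the days in every library. Clec4e, a receptor for microbial glycolipids and dying cells, fell 8.69-fold, and Fpr2, a receptor for formyl peptides, fell 6.96-fold (edgeR adjusted p = 0.000501 and 0.00130). The abundant cytoplasmic proteins S100a8 and S100a9 showed a large spread at day 5: S100a9 went from 577, 405 and 699 CPM to 178, 58.3 and 67.7 CPM and was not called (0.114). Ly6g, the surface marker most used for mouse neutrophils, was low throughout, at 1.45, 1.52 and 1.40 CPM and then at 0.244, 0.0380 and 0 CPM (edgeR adjusted p = 0.0326), and was called in 1 of the 6 fits without a library, with adjusted p of 0.0590 to 0.0989 in the others, the exception being that without day 5 replicate 1. Genes of the granules made during maturation in bone marrow, Mpo, Ltf, Camp and Ngp, were below 2 CPM in all 6 libraries and not called, and Elane was below the filter. Tarm1, a myeloid activating receptor outside the list, fell 13.3-fold, from 5.43, 6.35 and 4.86 CPM to 0.375, 0.342 and 0.525 CPM (edgeR adjusted p = 0.000260). The count of called markers was 8 to 10 in the fits without a library.

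Monocyte and macrophage genes were divided: of 18, 4 fell, 1 rose and 13 were not called, with a median of 0.05, close to that of all genes. Those that fell are carried by monocytes, and some of them by neutrophils or macrophages as well. Itgam, the integrin chain CD11b, went from 243, 179.6 and 220.4 CPM to 73.7, 62.0 and 66.2 CPM and fell 3.19-fold (edgeR adjusted p = 0.00297). Cd14, the co-receptor for bacterial lipopolysaccharide, went from 222, 121 and 138 CPM to 55.7, 21.6 and 34.8 CPM and fell 4.30-fold. Fcgr1, the high-affinity Fc receptor, fell 2.98-fold (edgeR adjusted p = 0.00863 and 0.00604). Ccr2, the receptor of Ccl2, was 2.13-fold lower (edgeR adjusted p = 0.0270), with the call lost without day 1 replicate 2 (0.0930), day 1 replicate 3 (0.0674), day 5 replicate 1 (0.0764) or day 5 replicate 2 (0.0747). General macrophage genes were not called: Adgre1, the gene of F4/80, stood at 137, 137 and 211 CPM and then 179.6, 102 and 189 CPM, and Csf1r at 197, 206 and 287 CPM and then 313, 180.1 and 325 CPM, with overlap between the days. Apoe, a lipid carrier abundant in macrophages that take up cell debris, stood at 1672, 1599 and 2432 CPM at day 1 and 4156, 3336 and 4100 CPM at day 5. It rose 2.03-fold (edgeR adjusted p = 0.00975), all day 5 libraries lay above all day 1 libraries, and the adjusted p was 0.0537 without day 1 replicate 1. Trem2, at 10.4, 12.7 and 34.1 CPM and then 54.1, 22.3 and 40.4 CPM, was not called.

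Among genes of resident dermal macrophages, 3 of 12 fell, none rose, and the median was -0.80. Lyve1, a hyaluronan receptor carried by vessel-associated macrophages and lymphatic endothelium, went from 140.2, 131 and 96.1 CPM to 28.0, 34.4 and 37.1 CPM and fell 3.69-fold (edgeR adjusted p = 0.00139). Prox1, the transcription factor of lymphatic endothelium, stood at 7.58, 6.63 and 8.0 CPM and then 7.53, 5.80 and 10.5 CPM and was not called. The mannose receptor Mrc1 was 1.96-fold lower (edgeR adjusted p = 0.0429) and Cbr2 1.60-fold lower (0.0426), each called in only 1 of the 6 fits without a library, that without day 5 replicate 3, with adjusted p of 0.0848 to 0.124 and 0.0629 to 0.134 in the others. Of genes linked to alternative macrophage activation, 4 of 10 fell and none rose. Chil3, a chitinase-like protein secreted by macrophages and neutrophils, went from 200.1, 167 and 149.5 CPM to 3.19, 9.05 and 5.02 CPM and fell 29.9-fold (edgeR adjusted p = 0.00284). Il4ra, the receptor chain shared by interleukin 4 and interleukin 13, went from 468, 473 and 360.2 CPM to 114, 86.0 and 103 CPM and fell 4.29-fold (edgeR adjusted p = 0.00104). The enzyme Arg1, at 42.8, 38.9 and 88.4 CPM and then 97.4, 65.4 and 50.5 CPM, and Retnla, at 18.4, 12.1 and 4.39 CPM and then 4.45, 23.3 and 14.6 CPM, overlapped between the days and were not called. The count for the alternative activation list was 2 without day 1 replicate 1.

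T and NK cell genes were low at both days. Of 18 T and NK cell markers, 2 rose (2.11% over all genes tested), none fell (4.09%) and all 18 had a positive fold change, with a median of 0.78. Their sum was 37.8 to 41.6 CPM at day 1 and 44.8 to 94.8 CPM at day 5, lowest in the hair-rich replicate 2. The kinase Lck stood at 2.47, 2.92 and 3.03 CPM and then 4.04, 4.47 and 6.21 CPM (edgeR adjusted p = 0.0386), and the co-stimulatory receptor Cd28 at 1.25, 1.20 and 2.63 CPM and then 6.42, 3.21 and 4.71 CPM (0.0483). Neither call was stable: Lck had adjusted p of 0.0517 to 0.167 in all 6 fits without a library, and Cd28 was lost without day 1 replicate 1 (0.191), day 1 replicate 2 (0.170), day 5 replicate 1 (0.151) or day 5 replicate 3 (0.101). Cd4, at 4.62, 4.58 and 6.49 CPM and then 18.3, 7.11 and 18.5 CPM, and Cd3e, at 1.89, 2.32 and 1.38 CPM and then 2.23, 2.76 and 4.28 CPM, did not pass the test. No B or plasma cell marker of 8 tested and no MHC class II gene of 8 was called, the latter with a median of 0.49 and with 3 called higher when hair content was a covariate or both hair-rich libraries of the course (day 5 replicate 2 and day 7 replicate 3) were left out. Among the B and plasma cell markers, Ighm stood at 23.35, 32.1 and 61.26 CPM and then 82.15, 63.78 and 98.21 CPM (edgeR adjusted p = 0.101). That list had a median log2 fold change of -0.289, with 5 of 8 fold changes negative. Of 11 dendritic and Langerhans cell genes, Cd83, a marker of mature dendritic cells, was 2.45-fold higher (edgeR adjusted p = 0.0378), with adjusted p of 0.0815 to 0.154 in all fits without a library but that without day 5 replicate 2.

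Of the mast cell genes the histamine-forming enzyme fell and the proteases were not called. Hdc, histidine decarboxylase, went from 146, 79.9 and 79.6 CPM to 19.0, 6.35 and 9.67 CPM and fell 8.71-fold (edgeR adjusted p = 0.00513). The proteases Cma1, Mcpt4 and Cpa3, which define connective tissue mast cells, had log2 fold changes of -0.20, -0.25 and -0.30 and were not called, and Hdc was the only one of 9 markers called. Hdc is also expressed by neutrophils and other myeloid cells, whose markers were lower at day 5, and their part in its change was not tested.

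Interferon-stimulated genes, the antiviral programme, had 6 of 16 members lower and none higher, with a median of -0.72. Rsad2, the antiviral enzyme viperin, went from 109.7, 104 and 98.6 CPM to 30.2, 17.3 and 22.4 CPM and fell 4.48-fold (edgeR adjusted p = 0.000952). Isg15, a ubiquitin-like modifier, went from 81.8, 90.5 and 90.4 CPM to 47.7, 25.9 and 27.4 CPM (edgeR adjusted p = 0.0298), and Ifit1, which binds foreign RNA, from 81.7, 88.8 and 86.5 CPM to 54.7, 25.8 and 33.7 CPM (0.0184). In these genes day 5 replicate 1 lay above the other day 5 libraries. Isg15 was called in 1 of the 6 fits without a library, that without day 5 replicate 1, with adjusted p of 0.0611 to 0.0973 in the others. Ifit1 was lost without day 1 replicate 1 (0.0572), day 1 replicate 2 (0.0666) or day 5 replicate 3 (0.0660). Rsad2 alone of the list was called in all 6 fits, and the count was 1 without day 1 replicate 1, day 1 replicate 2 or day 5 replicate 3.

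**Figure D4:**
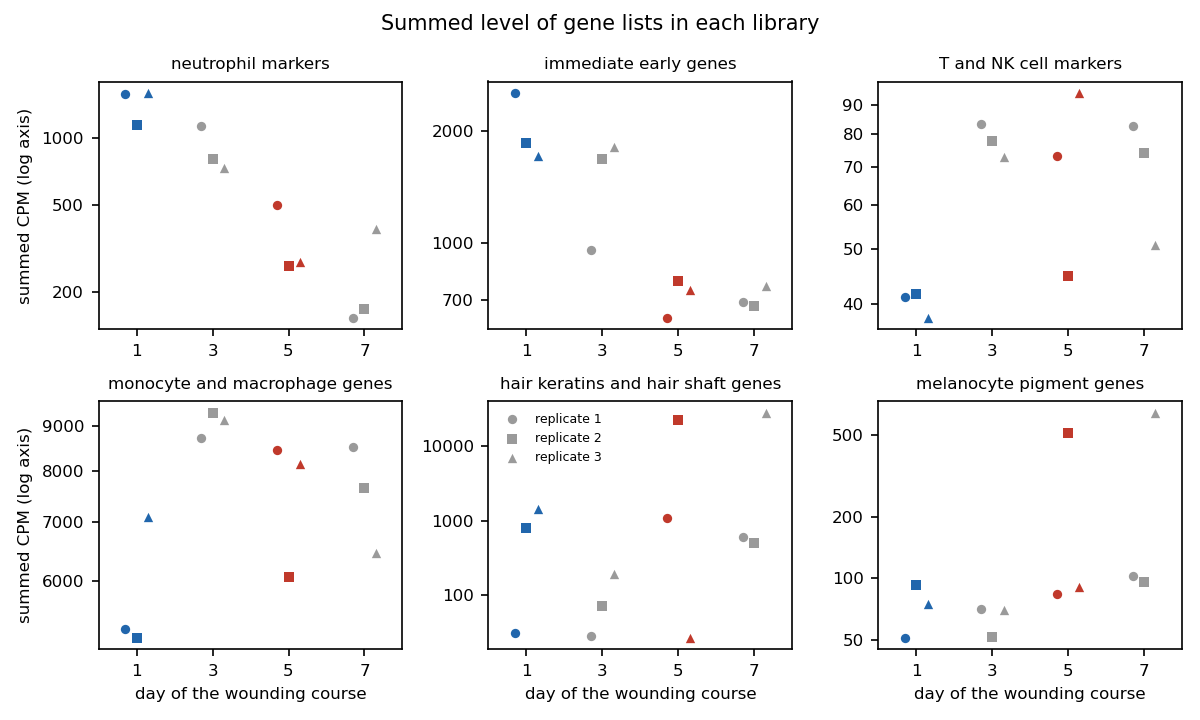
Summed CPM of 6 gene lists (vertical log axes) in each library by day of the course (horizontal axes), with day 1 in blue, day 5 in red, the times not compared in grey and the marker shape giving the replicate. Neutrophil markers lie at 1150 to 1611 CPM at day 1 and 263 to 500 CPM at day 5, and hair keratins reach 22980 CPM in day 5 replicate 2. The most abundant members of a list weigh most in its sum.

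Keratinocyte genes were compared by layer. Wound-edge genes mark the activated epidermis that migrates over a wound. Of 21, 2 fell (4.09% over all genes tested) and none rose (2.11%), with a median of -0.35. Hbegf, a ligand of the EGF receptor, went from 37.2, 24.1 and 27.2 CPM to 9.14, 10.6 and 8.87 CPM and fell 3.09-fold (edgeR adjusted p = 0.00355, and 0.0693 in a fit of all 15 libraries). Plaur, the receptor that focuses plasmin activation at the cell surface, went from 60.7, 38.4 and 43.7 CPM to 21.8, 13 and 18.1 CPM and fell 2.70-fold (edgeR adjusted p = 0.00464). In whole skin the cells that carried Hbegf and Plaur cannot be told apart, so their falls cannot be assigned to the epidermis. The stress keratins overlapped between the days: Krt6a, whose reads are shared in part with its near-identical copy Krt6b, stood at 1232, 921 and 2057 CPM and then 1328, 1027 and 1189 CPM, and Krt16 at 517, 368 and 884 CPM and then 717, 456 and 571 CPM. Among 11 basal genes only Itgb4, of the integrin that anchors basal cells, was lower (log2 fold change -0.65, edgeR adjusted p = 0.0279), and it was called in 1 of the 6 fits without a library, that without day 1 replicate 3, with adjusted p of 0.0516 to 0.108 in the others. All 20 suprabasal and cornified envelope genes, which build the barrier, had a positive fold change, with a median of 0.78 (0.03 over all genes), and none was called. The count called higher was 0 to 3 in the fits without a library, 3 with DESeq2 and 2 with hair content as a covariate. Casp14, described next, had an edgeR adjusted p of 0.00303 without day 1 replicate 3. Rptn, repetin, went from 21.6, 32.8 and 144 CPM to 538, 145 and 247 CPM and Casp14, a protease of cornification, from 16.2, 20.4 and 72.4 CPM to 157, 102 and 108 CPM (edgeR adjusted p = 0.101 and 0.0664). In both, day 1 replicate 3 was well above the other day 1 libraries, and for Rptn it reached the level of day 5 replicate 2.

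Hair and pigment genes followed 1 library. The 19 tested hair keratin and hair shaft genes summed to 30.8, 790.1 and 1457 CPM at day 1 and to 1106, 22980 and 26.7 CPM at day 5. Krt31, a keratin of the hair cortex, stood at 0.335, 10.4 and 36.3 CPM and then 13.1, 579.7 and 0.467 CPM and had a log2 fold change of 3.66 with no call. Without day 5 replicate 2 its log2 fold change was -1.21. The melanocyte gene Tyrp1, of pigment synthesis, stood at 3.76, 16.2 and 13.4 CPM and then 12.7, 133 and 13.9 CPM, high in the same library, and none of the 9 pigment genes was called. With day 5 replicate 2 and the other hair-rich library of the course, day 7 replicate 3, left out, 2032 genes were called, 825 higher and 1207 lower.

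Matrix genes were mixed. Of 20 collagen chains, 17 had a positive fold change, with a median of 0.54, but only Col15a1 was called (2.11% of all genes tested were called higher). The count of called collagen chains was 0 to 3 in the fits without a library, 8 with DESeq2 and 9 without both hair-rich libraries. Col1a1 stood at 7170, 11560 and 4396 CPM and then 10550, 6887 and 11620 CPM and Col3a1 at 10220, 17720 and 10240 CPM and then 17220, 10090 and 18050 CPM, with overlap between the days. Col15a1, a collagen of the zone around basement membranes, stood at 74.5, 100.4 and 112 CPM and then 166, 131 and 182 CPM (edgeR adjusted p = 0.0474). Its call was lost without day 1 replicate 1 (0.186), day 1 replicate 2 (0.124), day 5 replicate 1 (0.127) or day 5 replicate 3 (0.139). Of 16 collagen-modifying enzymes, Loxl2, a cross-linking lysyl oxidase, was higher (log2 fold change 0.84, edgeR adjusted p = 0.0458), and was called in 1 of the 6 fits without a library, that without day 5 replicate 2, with adjusted p of 0.0847 to 0.191 in the others.

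Matrix glycoproteins split between 3 higher and 5 lower of 20. The higher members were Tnn, Cthrc1 and Postn, proteins of forming matrix. Tnn, tenascin-N, stood at 8.89, 11.2 and 17.5 CPM at day 1 and 65.6, 21.5 and 47.0 CPM at day 5 and was 3.56-fold higher (edgeR adjusted p = 0.0148, and 0.0742 and 0.0692 without day 1 replicate 1 and day 1 replicate 2). Cthrc1, a secreted protein of activated fibroblasts, stood at 44.0, 51.3 and 69.6 CPM and then 242, 85.8 and 185 CPM and was 3.11-fold higher (edgeR adjusted p = 0.0184), with the call lost without day 1 replicate 1 (0.0917), day 1 replicate 2 (0.0809), day 5 replicate 1 (0.0600) or day 5 replicate 3 (0.0513). Periostin, Postn, stood at 517, 711 and 1198 CPM and then 3384, 1342 and 2059 CPM (edgeR adjusted p = 0.0343), with the call lost without day 1 replicate 1 (0.133), day 1 replicate 2 (0.126), day 5 replicate 1 (0.108) or day 5 replicate 3 (0.0686). In all 3 genes day 5 replicate 2 was the lowest of its day and still above each day 1 library. Without day 1 replicate 1 or without day 1 replicate 2 none of the 20 was called higher, and the count reached 6 without day 5 replicate 2 and 8 without both hair-rich libraries. On the lower side, Thbs1, thrombospondin of platelets and early wounds, went from 843, 499 and 458 CPM to 143, 101 and 120.0 CPM and fell 4.94-fold (edgeR adjusted p = 0.00226). The hyaluronan synthases Has1 and Has2 and the proteoglycan Vcan, which binds hyaluronan, had log2 fold changes of -2.52, -0.86 and -0.89 (edgeR adjusted p = 0.0467, 0.0336 and 0.00874). Vcan was called in all 6 fits without a library, Has1 only in that without day 1 replicate 3 and Has2 only in that without day 1 replicate 2, with adjusted p of 0.0548 to 0.181 and 0.0637 to 0.121 in the others. Only 2 of the 20 were called lower without day 1 replicate 1, day 5 replicate 2 or day 5 replicate 3.

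Proteases that cut the matrix and their inhibitors had 6 of 18 members lower and 1 higher, with a median of -0.84. Adamts1, a protease of versican, went from 249.7, 189 and 146 CPM to 50.7, 49.3 and 64.5 CPM and fell 3.55-fold (edgeR adjusted p = 0.00134). Adamts5, of the same family, went from 250, 249 and 179.5 CPM to 75.8, 68.9 and 80.8 CPM and fell 3.01-fold. Mmp9, a gelatinase of neutrophils, macrophages and wound-edge keratinocytes, went from 93.9, 57.0 and 77.8 CPM to 32.7, 23.5 and 15.2 CPM and fell 3.20-fold (edgeR adjusted p = 0.00373 and 0.00913). Each of the 3 was lower in every day 5 library than in every day 1 library. The inhibitor Timp1 was 3.24-fold lower (edgeR adjusted p = 0.0353), but had adjusted p of 0.0636 to 0.106 in all 6 fits without a library. The inhibitor Timp3 was higher (log2 fold change 0.71, edgeR adjusted p = 0.0139), at 173, 152 and 156 CPM and then 228, 276 and 283 CPM, and had an adjusted p of 0.0667 without day 1 replicate 2. Mmp2 and Mmp14, gelatinase and its membrane-bound activator, overlapped between the days (log2 fold changes -0.02 and 0.54). Without day 1 replicate 1, 3 members were called lower. Of 11 genes of plasminogen activation and clotting, 3 were called lower and 1 higher, with a median of -0.30. The lower members were Plaur, described above, the plasminogen activator inhibitor Serpinb2 (log2 fold change -1.08, edgeR adjusted p = 0.0429) and thrombomodulin, Thbd (-1.06, adjusted p = 0.0413). Serpinb2 was called only in the fit without day 5 replicate 3 of the 6, with adjusted p of 0.0831 to 0.129 in the others, and Thbd only in that without day 1 replicate 2, with 0.0574 to 0.146. Tfpi2, an inhibitor of serine proteases, was 2.32-fold higher, from 6.53, 5.95 and 7.55 CPM to 21.5, 11.0 and 13.9 CPM (edgeR adjusted p = 0.00988, and 0.0513 and 0.0506 without day 1 replicate 1 and day 1 replicate 2).

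Fibroblast genes were compared in lists of myofibroblast and of resting markers. Of 12 myofibroblast and smooth muscle genes only Lrrc15, a membrane protein of activated fibroblasts that also occurs in hair follicles, was called. It stood at 7.60, 33.3 and 54.9 CPM at day 1 and 233, 486 and 92.2 CPM at day 5, 8.46-fold higher (edgeR adjusted p = 0.0466), highest in the hair-rich replicate 2. Lrrc15 lost its call without day 1 replicate 1 (0.112), day 1 replicate 2 (0.149), day 5 replicate 1 (0.0953) or day 5 replicate 2 (0.127) and with both hair-rich libraries of the course left out (0.0694), while with hair content as a covariate the adjusted p was 0.00112. Acta2, smooth muscle actin, stood at 147, 159.9 and 156 CPM and then 242, 142 and 263 CPM and Tagln at 80.7, 84.5 and 79.0 CPM and then 110.3, 93.4 and 127 CPM, not called (0.223 and 0.0975, edgeR adjusted p). Of 13 resting fibroblast markers 2 fell and none rose. Pdgfra, the receptor of platelet-derived growth factor on fibroblasts, went from 465, 477 and 315 CPM to 153, 113 and 140.0 CPM and fell 3.09-fold (edgeR adjusted p = 0.00269). Ly6a was the second, with a log2 fold change of -0.83 (edgeR adjusted p = 0.03465). Its call was lost without day 1 replicate 1 (0.0962), day 1 replicate 2 (0.131), day 5 replicate 1 (0.0779) or day 5 replicate 2 (0.0852). The other markers of that list had a positive fold change in 10 cases, among them Cd34 (0.43) and Dpt (0.15), with no call.

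Growth factors of repair had 4 of 20 members lower and 1 higher (4.09% and 2.11% of all genes tested). Fgf23, best known as a bone hormone of phosphate balance, had 1583, 636 and 515 counts in the day 1 libraries and 7, 8 and 5 counts in the day 5 libraries. That is 27.9, 10.6 and 9.34 CPM against 0.114, 0.152 and 0.0973 CPM, and Fgf23 fell by 7.01 ± 1.09 (SE) on the log2 scale (edgeR adjusted p = 0.00634), the lowest fold change of the genes that the naming rule took. Csf3, granulocyte colony-stimulating factor, went from 18.4, 7.08 and 5.89 CPM to 0.750, 0.0761 and 0.0778 CPM and fell by 5.07 ± 0.86 (SE) on the log2 scale (edgeR adjusted p = 0.00948, and 0.0509 in a fit of the 6 libraries alone). Fgf7, keratinocyte growth factor, went from 47.5, 59.3 and 46.9 CPM to 25.5, 26.1 and 23.9 CPM and fell 2.04-fold (edgeR adjusted p = 0.00134). All 3 were separate between the days. At day 5 Csf3 had 46 counts in replicate 1 and 4 in each of the others. Csf1, the macrophage growth factor, fell 2.23-fold (edgeR adjusted p = 0.0139, and 0.0570 without day 1 replicate 1). Vegfa, the vessel growth factor, had a log2 fold change of -0.39 (0.0731) and Tgfb1 of -0.41 (0.212), neither called. The higher member, Pdgfa, changed by 0.36 on the log2 scale (edgeR adjusted p = 0.0494) and had adjusted p of 0.113 to 0.153 in the 6 fits without a library. Of 18 Wnt pathway genes, 16 had a positive fold change and the antagonist Frzb alone was called higher (edgeR adjusted p = 0.0399), at 1.15, 1.85 and 1.31 CPM and then 3.77, 2.57 and 3.21 CPM, with adjusted p of 0.0519 to 0.170 in those fits.

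Vessel, nerve, fat and muscle lists gave at most 1 call each (of all genes tested, 2.11% were called higher and 4.09% lower). None of 20 endothelial genes was called, with a median of 0.03: Pecam1 stood at 158, 119 and 151 CPM and then 167, 98.3 and 188 CPM, and Kdr, the main receptor of Vegfa, at 45.8, 30.4 and 38.7 CPM and then 46.7, 23.6 and 42.1 CPM. Of 13 Schwann cell and nerve genes, Erbb3, a neuregulin receptor also present in epidermis, was higher (log2 fold change 0.52, edgeR adjusted p = 0.0272), and the call was lost without day 1 replicate 1 (0.110), day 1 replicate 2 (0.112), day 5 replicate 2 (0.0781) or day 5 replicate 3 (0.0587). No adipocyte gene of 11 and no skeletal muscle gene of 12 was called, and muscle actin Acta1 was present at 2298, 1686 and 1874 CPM and then 1613, 1229 and 2003 CPM, so the skin held muscle RNA at both days.

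Genes of cell division were compared in lists of mitosis and of DNA replication. None of 19 mitosis genes was called, all with a small positive fold change and a median of 0.15. Mki67, the proliferation marker Ki-67, stood at 60, 100.5 and 146 CPM and then 104, 158 and 108 CPM, and Top2a, the mitotic topoisomerase, at 57.1, 89.0 and 124 CPM and then 81.9, 103 and 91.5 CPM. The day 1 libraries spread more than 2-fold, with replicate 1 lowest and replicate 3 highest, and enclosed all day 5 libraries for Top2a. DNA replication genes had a median of -0.38 with all 14 fold changes negative, and Mcm4, of the replicative helicase, was the only one called (log2 fold change -0.60, edgeR adjusted p = 0.0420). Mcm4 went from 47.6, 49.6 and 55.5 CPM to 30.6, 36.0 and 34.4 CPM, and its adjusted p was 0.0711 to 0.124 in the 6 fits without a library. The count for DNA replication was 3 with DESeq2 or with hair content as a covariate and 6 without both hair-rich libraries.

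Genes of hypoxia and glycolysis had 6 of 20 members lower and none higher, with a median of -0.35. Slc16a3, the transporter that exports lactate, went from 104, 75.3 and 82.6 CPM to 30.6, 22.0 and 30.6 CPM and fell 3.15-fold (edgeR adjusted p = 0.000783). Pkm, pyruvate kinase, went from 1281, 1094 and 1132 CPM to 724, 564 and 712 CPM and fell 1.75-fold (edgeR adjusted p = 0.00687). Adm, the vasodilator adrenomedullin, went from 64.7, 49.5 and 20.8 CPM to 1.55, 0.247 and 3.5 CPM and was 25.5-fold lower (edgeR adjusted p = 0.0125, and 0.0559 without day 5 replicate 1). Day 5 values of Adm differed more than 10-fold among themselves, while all lay below day 1. Other hypoxia targets, Car9 (-0.51), Bnip3 (0.01) and Egln3 (0.40, log2 fold changes), were not called, and the count of called members was 3 without day 1 replicate 1, day 5 replicate 1 or day 5 replicate 2.

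Genes of the endoplasmic reticulum stress response had 5 of 15 members lower and none higher, with a median of -0.49. Sdf2l1, a chaperone partner of the reticulum, went from 55.7, 59.2 and 41.6 CPM to 19.4, 23.5 and 23.8 CPM and fell 2.35-fold, and Pdia4, a disulfide isomerase, fell 1.67-fold (edgeR adjusted p = 0.00173 and 0.00462). Hspa5, the chaperone BiP, went from 998, 951 and 712 CPM to 416, 421 and 557 CPM (edgeR adjusted p = 0.0191), with the call lost without day 1 replicate 1 (0.0821), day 1 replicate 2 (0.0752), day 5 replicate 1 (0.0702) or day 5 replicate 2 (0.0619). Other members, Ddit3, Trib3 and Atf4, had log2 fold changes of 0.06, 0.07 and -0.32 and were not called. The count was 2 without day 1 replicate 1, day 1 replicate 2 or day 5 replicate 1. Of 13 cholesterol and fatty acid synthesis genes, 2 fell and none rose, among them Acaca, which makes malonyl-CoA and fell 1.63-fold, from 111, 118 and 120.2 CPM to 76.9, 77.9 and 59.0 CPM (edgeR adjusted p = 0.00786). The desaturase Scd1 overlapped between the days. No nuclear respiratory chain gene of 15 was called. No clock gene of 14 was called, but 1 was higher without day 5 replicate 2, 3 with DESeq2, 4 with hair content as a covariate and 6 without both hair-rich libraries. Per2, a clock gene with a log2 fold change of 1.30 (0.0569), was highest in day 5 replicate 3, and the labels do not give the hour of sampling.

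Several genes that the naming rule took rose and were called in all 6 fits without a library. Prnd, which encodes the prion-like protein doppel, stood at 2.42, 1.57 and 2.69 CPM at day 1 and 19.3, 9.66 and 15.4 CPM at day 5 and rose 6.64-fold (edgeR adjusted p = 0.00142). Nrep, a small protein known from nerve regeneration and myofibroblasts, went from 32.8, 48.8 and 59.0 CPM to 176, 143 and 173 CPM and rose 3.5-fold (edgeR adjusted p = 0.00104). Its mean was 108 CPM at day 3 and 245 CPM at day 7. Cyp17a1, an enzyme of steroid hormone synthesis, went from 5.04, 7.49 and 8.98 CPM to 27.4, 22.8 and 35.8 CPM and rose 4.0-fold (edgeR adjusted p = 0.00355). For these 3 genes, as for each gene called higher, the lowest day 5 library lay above the highest day 1 library. Btnl9, a butyrophilin-like membrane protein, rose 2.28-fold, from 2.67 ± 0.440 to 6.09 ± 0.545 CPM (SD, n = 3). The unnamed gene 2300002M23Rik had 0, 0 and 2 counts at day 1 and 401, 109 and 97 counts at day 5, a ratio of 315 with a 95% interval of 86.9 to 2610 that covers counting error only.

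Other called genes that were higher lost their call in 1 or more of these fits. Prss35, a serine protease-like protein, stood at 1.43, 2.54 and 9.23 CPM and then 63.4, 28.7 and 26.7 CPM, 9.0-fold higher (edgeR adjusted p = 0.0237), with the call lost without day 1 replicate 1 (0.0668), day 1 replicate 2 (0.0952) or day 5 replicate 1 (0.0680). Its mean at day 7 was 132 CPM. Angptl7, a secreted angiopoietin-like protein, stood at 1.15, 1.04 and 2.38 CPM and then 11.7, 6.07 and 29.2 CPM (edgeR adjusted p = 0.0191), lost without day 1 replicate 1 (0.0956), day 1 replicate 2 (0.0895) or day 5 replicate 3 (0.0513). Mdk, the heparin-binding growth factor midkine, stood at 2.19, 2.27 and 4.35 CPM and then 18.2, 7.25 and 11.2 CPM (edgeR adjusted p = 0.0271), lost without day 1 replicate 1 (0.120), day 1 replicate 2 (0.112), day 5 replicate 1 (0.0887) or day 5 replicate 3 (0.0564). The day 5 libraries of these 3 genes lay above all day 1 libraries, as for each gene called higher. The imprinted zinc finger gene Zim1 was 3.84-fold higher (edgeR adjusted p = 0.0119, and 0.0598 without day 1 replicate 2). Mfap4, of microfibrils, stood at 105 ± 36.8 CPM at day 1 and 345 ± 77.3 CPM at day 5 (SD, n = 3, edgeR adjusted p = 0.0463) and had adjusted p of 0.0649 to 0.166 in the 6 fits without a library.

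**Figure D5:**
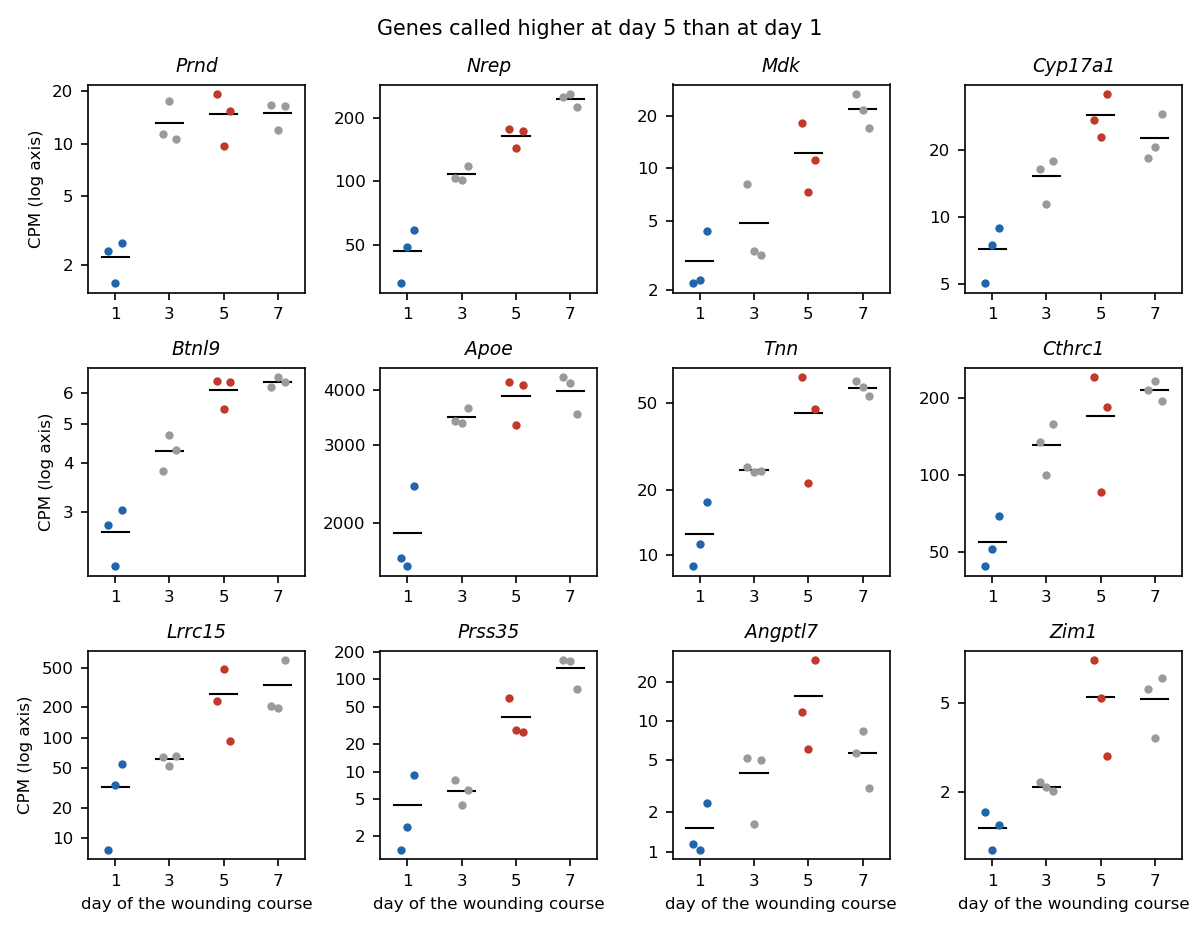
CPM (vertical log axes) of 12 genes called higher at day 5, by day of the course (horizontal axes), each point 1 library and each bar a group mean, with day 1 in blue, day 5 in red and the times not compared in grey. In each panel the 3 day 5 libraries lie above the 3 day 1 libraries, as for each gene called higher. Nrep goes from 46.9 to 164 CPM on average.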

How the data were processed

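The authors deposited 1 file per library with estimated counts per gene symbol, for which the submitters' processing notes name kallisto 0.43. Transcript index, build, strand setting and gene summation were not given in the sources used here. The estimated counts were whole numbers and were rounded without change. Genes with near-identical copies (Saa1 and Saa2, Krt6a and Krt6b, Mrgpra2b) and overlapping or antisense genes are uncertain. Of 30307 rows per file, 26 carried calendar dates in place of symbols, 0.155% to 0.179% of the counts of a library, and were left out.

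Counts of the 12 libraries of day 1, 3, 5 and 7 were filtered (minimum count 10, 16983 of 30281 genes kept), TMM-scaled and fitted by edgeR 4.0.16 with limma 3.58.1 in R 4.3.3, robust quasi-likelihood, two-sided, adjusted by Benjamini-Hochberg over all genes. Day 0 was left out because earlier results showed its libraries uneven. Each SE was derived from the log2 fold change and the F value. The fit was also run on simulated counts in which, unlike here, no library stood apart. That run is no check of the calls given here. DESeq2 1.42.0 was an alternative, with other filters, scaling and sets of libraries.

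Members and the 41 lists were chosen with earlier results of these data known. Of 618 list genes, 616 were in the files. Named by rule were the 14 highest and 14 lowest called genes changed at least 2-fold with 5 CPM in the higher group, an ordinary symbol and no overlap between the days, up to 5 called members per list or else 2 with the smallest p, the 6 smallest p each way, and check genes for hair, muscle, fat and mitochondria. Not all are described, a few are not reported here, and other list members were chosen after their values were seen. RefSeq promoter windows were matched by symbol: 12 of 17 cytokine, 14 of 21 chemokine and 12 of 14 feedback genes.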

Additional observations from a re-analysis of the deposited data

How the results depend on the processing

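Every called gene kept its direction in each alternative that tested it. The libraries of both days overlapped for none of the 1054, so a reversal was hardly possible and the kept direction adds no support. Of the 1054, 263 were called in all 6 fits without a library. Against 1054 calls (359 higher, 695 lower), a fit of the 6 libraries alone gave 594 (159 and 435), the fit with a replicate block 608 (152 and 456) and DESeq2 2344 (1025 and 1319). With all 15 libraries, RLE scaling, either other filter or hair genes left out, the count stayed between 873 and 1217. Leaving out 1 library gave 294 to 872 calls, 32 to 314 higher and 262 to 558 lower, the lowest without day 1 replicate 1. Chosen after seeing the data, a covariate for hair content gave 1464 (579 higher and 885 lower) and leaving out both hair-rich libraries 2032 (825 and 1207). The cause of these shifts was not tested. The labels do not say what a shared replicate number means, so the numbers were not taken to pair the libraries. Deviations of same-numbered day 1 and day 5 libraries correlated at 0.0465, 0.268 and -0.461, and 1 of 3 day 1 libraries correlated best with its own number. The highest correlation, 0.627, was between day 1 replicate 1 and day 5 replicate 3, each with the lowest hair share of its day (0.00415% and 0.00426%). Deviations from a mean of 3 libraries are not independent, so these values cannot decide on pairing. Of the named genes, 8 log2 fold changes reversed, all of 4 genes called under no setting. Leaving out 1 library moved Adipoq between -0.63 and 0.14 (positive without day 1 replicate 3), Krt31 between -1.21 and 5.19, Padi3 between -0.31 and 4.22 and Tchh between -0.10 and 4.23 (the last 3 negative without day 5 replicate 2). Without both hair-rich libraries these 3 were at -1.21, -0.32 and -0.10, and Krt31 was at -0.27 with the hair covariate.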

Other observations

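Some called genes outside the naming rule were looked at after their values were seen, and are given as values. The interleukin 1 receptor Il1r1 went from 196, 183 and 150.5 CPM at day 1 to 64.7, 60.6 and 60.2 CPM at day 5 (replicates 1, 2 and 3), 2.85-fold lower, and its adaptor Myd88 from 111, 111 and 82.3 CPM to 48.6, 40.0 and 46.7 CPM, 2.25-fold lower (edgeR adjusted p = 0.00130 and 0.00142). Nlrp3, the inflammasome sensor, was 7.30-fold lower, and Acod1, which makes itaconate in activated macrophages, 11.1-fold lower (edgeR adjusted p = 0.00431 and 0.00478). The scavenger receptor Msr1, the secreted glycoprotein Lrg1 and the metalloreductase Steap4 were lower by 4.09-fold, 4.71-fold and 2.80-fold. All 7 genes were called in each of the 6 fits without a library. Metallothionein genes Mt1 and Mt2, which bind zinc and copper, had log2 fold changes of -1.82 and -2.25 (edgeR adjusted p = 0.0255 and 0.0453). Mt1 was called only without day 1 replicate 3 or day 5 replicate 2, with adjusted p of 0.0765 to 0.0962 in the other fits, and Mt2 in none of the 6 (0.0512 to 0.147).

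Of 3 genes of prostaglandin metabolism looked at, Ptgs2, the inducible cyclooxygenase, went from 95.5, 42.0 and 38.6 CPM to 13.1, 3.02 and 3.62 CPM (edgeR adjusted p = 0.0144, 0.0548 without day 1 replicate 1 and 0.0501 without day 5 replicate 3), and the prostaglandin E synthase Ptges from 88.0, 88.1 and 91.2 CPM to 58.3, 38.7 and 53.4 CPM (0.0187, 0.0624 without day 1 replicate 1 and 0.0635 without day 1 replicate 2). Hpgd, which breaks prostaglandins down, went from 24.1, 43.8 and 32.4 CPM to 58.0, 71.5 and 82.7 CPM (0.0359), and was called only without day 1 replicate 2, with adjusted p of 0.0553 to 0.142 in the other fits. Of imprinted genes other than Zim1, Peg3 rose 2.36-fold, from 25, 16.2 and 19.7 CPM to 59.8, 41.4 and 42.7 CPM (edgeR adjusted p = 0.00454), in all 6 fits. Plagl1 was 2.20-fold and Cdkn1c 1.89-fold higher (0.0214 and 0.0348). Plagl1 was called only without day 1 replicate 3 or day 5 replicate 2 (0.0553 to 0.0995 in the others) and Cdkn1c only without day 5 replicate 2 (0.0603 to 0.131). The transcription factor Sox4 rose 2.10-fold, from 30.1, 44.2 and 40.1 CPM to 73.3, 95.4 and 71.5 CPM (edgeR adjusted p = 0.00876).

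Promoter windows of 2 further lists were searched for letters of known cell cycle and hypoxia motifs, on either strand, in the same RefSeq table. TTTGAA or TTCGAA, the cell cycle homology region, was in 13 of 16 windows of the mitosis list and in 19.2% of all windows. CCAAT, the NF-Y box, was in 14 of 16 and in 37.4% of all. ACGTG, the hypoxia response core, was in 16 of 27 windows of the hypoxia and glycolysis list and in 19.6% of all. All members with an entry were searched, called or not, so the shares describe the lists and not the change between the days, and a match is no evidence of binding.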
